A study of Mus musculus with 6 samples.

Results

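MHC and antigen presentation genes were taken as every row of the count table whose Ensembl identifier maps to a symbol starting with H2-, together with B2m, Tap1, Tap2, Tapbp, Psmb8, Psmb9, Psmb10, Erap1, Nlrc5 and Ciita. These were 55 genes of 57180 rows, 45 of them H2 genes, and 50 of the 55 lie on chromosome 17, where the mouse MHC, the H2 complex, is found. Reads were counted for 23 of the 55 genes, and the other 32 were listed at 0 in all 6 libraries. Only 8 had enough counts to be tested between the genotypes.

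The libraries came from calvaria-derived cells, that is, cells isolated from the skull vault and grown in a medium for bone formation that held ascorbate and β-glycerophosphate. Cells of C57BL/6 mice, the wild-type control, gave 3 libraries (wt), and cells of B6Smn.C3-Faslgld/J mice, which are homozygous for the gld mutation of Fasl, gave 3 (labelled FasL KO, the name used here). The mutation is in the germ line and not limited to 1 cell type, and both groups grew in the same medium. No source used here gives the age or sex of the mice, says whether animals were pooled, or tells if the 3 libraries of a genotype are separate cultures, so p-values measure only how far these libraries differ, which may be technical variation. Fasl itself was listed at 0 in all 6 libraries, so the counts do not check the genotype. A culture of FasL KO cells with added Fas ligand is described for the study and was not analysed here.

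Class I MHC molecules display peptides from inside the cell to CD8 T cells. A polymorphic or conserved heavy chain pairs with β2-microglobulin, and the peptide is cut by the proteasome, carried into the endoplasmic reticulum by the transporter TAP, trimmed by Erap1 and loaded with the help of tapasin and calreticulin. Class II molecules display peptides from the endocytic route to CD4 T cells, and are made mainly by professional antigen-presenting cells such as macrophages, dendritic cells and B cells, under the control of Ciita. Nlrc5 is the corresponding activator of class I genes, and interferons raise both classes. Osteoblasts and fibroblasts, like most nucleated cells, carry class I.

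Promoters of class I genes and of B2m hold a shared set of short elements. They are an NF-kB site, an interferon-stimulated response element (ISRE) and the X and Y boxes through which Nlrc5 and its partners act. The windows of 4 genes that were higher in FasL KO libraries are shown because they let matches to these elements be compared between the light chain, a classical heavy chain and 2 non-classical ones. Each runs from 250 bases before to 50 after the start of the gene in RefSeq (GRCm38.p6), read 5′ to 3′ on the plus strand. Windows lie at chr2:122147437-122147736 for B2m, chr17:35262844-35263143 for H2-D1, chr17:35379367-35379666 for H2-Q4 and chr17:37269984-37270283 for H2-M3. Capitals mark every match, on either strand, to the ISRE core (GAAA and GAAA 2 bases apart), to a wide NF-kB site (GGG and CC 5 bases apart), to the X2 core TGACG and to the Y box core CCAAT, and overlapping matches run together.
B2m: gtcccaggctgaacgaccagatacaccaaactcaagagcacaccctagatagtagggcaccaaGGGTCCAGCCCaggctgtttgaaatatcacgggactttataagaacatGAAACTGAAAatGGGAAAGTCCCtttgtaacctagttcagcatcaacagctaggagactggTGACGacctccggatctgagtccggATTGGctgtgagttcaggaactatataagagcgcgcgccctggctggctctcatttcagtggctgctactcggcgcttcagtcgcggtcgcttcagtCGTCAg
H2-D1: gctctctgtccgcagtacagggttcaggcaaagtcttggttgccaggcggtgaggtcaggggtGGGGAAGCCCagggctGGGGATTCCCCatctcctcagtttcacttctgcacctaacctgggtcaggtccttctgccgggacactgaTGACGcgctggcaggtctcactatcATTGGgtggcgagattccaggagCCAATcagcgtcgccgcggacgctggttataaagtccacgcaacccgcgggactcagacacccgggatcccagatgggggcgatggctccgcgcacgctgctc
H2-Q4: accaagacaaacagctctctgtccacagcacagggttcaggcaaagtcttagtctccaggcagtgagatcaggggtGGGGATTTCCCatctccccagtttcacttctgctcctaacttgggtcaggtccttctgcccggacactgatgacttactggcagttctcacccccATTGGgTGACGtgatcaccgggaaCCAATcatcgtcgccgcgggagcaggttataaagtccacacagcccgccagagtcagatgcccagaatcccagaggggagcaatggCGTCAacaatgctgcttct
H2-M3: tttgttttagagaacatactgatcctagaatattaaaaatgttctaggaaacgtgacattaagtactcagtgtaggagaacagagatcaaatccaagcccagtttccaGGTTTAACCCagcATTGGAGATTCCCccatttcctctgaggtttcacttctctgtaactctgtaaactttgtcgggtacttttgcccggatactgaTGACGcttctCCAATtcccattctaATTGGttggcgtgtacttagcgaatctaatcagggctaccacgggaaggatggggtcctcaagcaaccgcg
In B2m the ISRE core starts at position -139, counted from the start of the gene, and the Y box core, on the minus strand, at -53. X2 cores start at -78 and, on the minus strand, at 45. In H2-D1 the X2 core starts at -101 and Y box cores at -76 and -53, and wide NF-kB matches start at -187, -171 and -170. In H2-Q4 an X2 core is placed otherwise, at -73, after a Y box core at -79. A further X2 match of H2-Q4, at 32, lies past the start of the gene, as the match at 45 in B2m does. Of the 39 genes of the set with a RefSeq window, 33 held the Y box core, against 37.4% of 32851 windows of all genes, and 15 held the X2 core, against 20.8%. The ISRE core was in 4 of the 39, B2m, Erap1, H2-T22 and H2-T23, against 3.44% of all windows. The search allowed no mismatch, so a variant of the element would be missed. The windows of H2-D1, H2-Q4 and H2-M3 each hold tttcacttct, which resembles the core on the minus strand but does not match it and is unmarked. The wide NF-kB site was in 19 of 39 and in 50.8% of all, and a gamma-activated sequence core (TTC and GAA 3 bases apart) was in 4 of 39 and in 8.30% of all. The same elements stood in windows of genes listed at 0, H2-K1 among them, with an X2 core, a Y box core and an NF-kB match. H2 windows are related in sequence, so these counts are not independent, and a match is a run of letters and not a known binding site.

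Transcripts of β2-microglobulin and of class I heavy chains were more abundant in FasL KO libraries. Of 8 tested genes, 7 rose, none fell and 1, H2-DMb1, did not pass (edgeR quasi-likelihood test, called under an adjusted p of 0.05). Without FasL KO 3 the count of called genes was 4, with Erap1, H2-M3 and H2-Q7 lost. Of all 8692 genes tested, 17.4% were called, 9.74% as higher and 7.69% as lower in FasL KO. The median log2 fold change, FasL KO minus wt, was 1.41 over the 8 genes and 0.02 over all tested genes. H2-Q6 and H2-Q7 were among the 8 through their FasL KO counts, since fewer than 3 wt libraries reached the level of 2.80 CPM that the filter on low counts asks for, so the count of 7 is a description and no test of the set. Groups did not overlap for 7 of the 8 genes, against 33.3% of all tested genes. In bulk libraries, fewer cells of a type and less RNA per cell cannot be told apart. The levels of the tested genes by library are plotted first, and their changes after the individual genes.

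**Figure D1:**
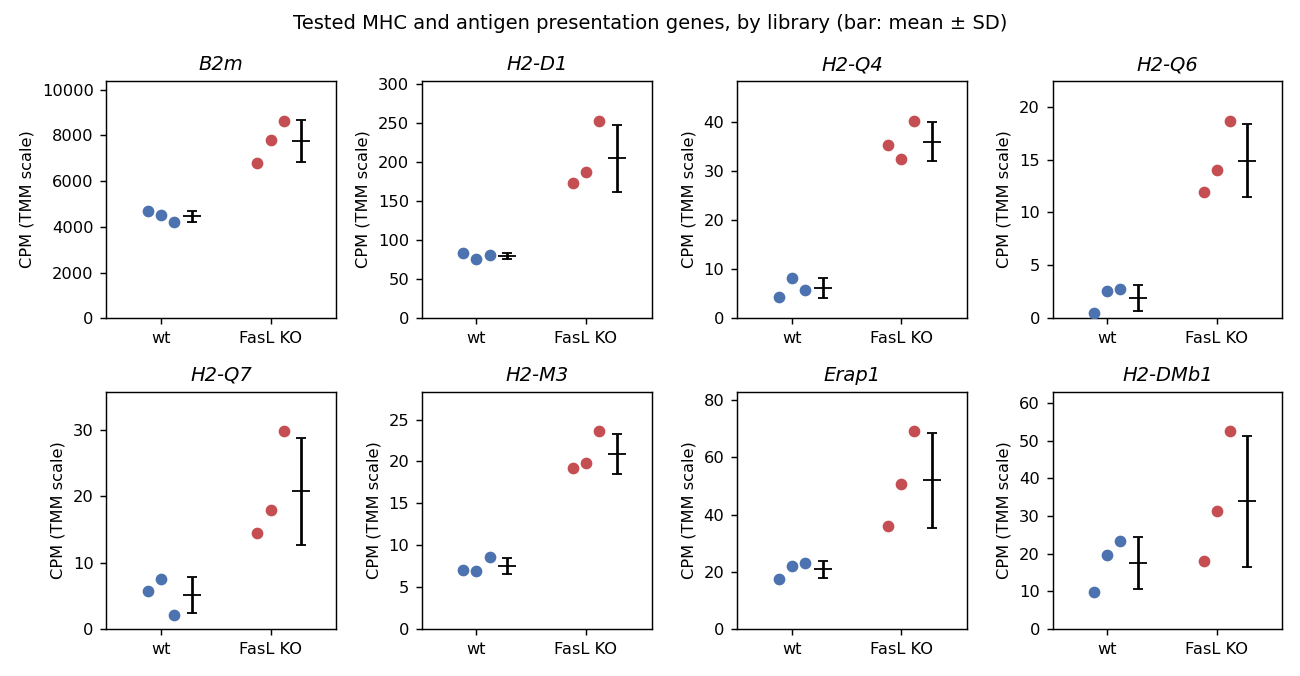
Level of each of the 8 tested genes in CPM on the TMM scale (vertical axes, each starting at 0 with its own scale), for 3 wt and 3 FasL KO libraries; points are libraries and the bar is the mean ± SD. The groups do not overlap in any panel except H2-DMb1, where FasL KO 1 at 18.0 CPM lies among the wt libraries.

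B2m encodes β2-microglobulin, the light chain that every class I molecule needs (ENSMUSG00000060802, GRCm38 chromosome 2, 122147686 to 122153083, plus strand). It gave 9968, 14313 and 13714 counts in the wt libraries and 27289, 29513 and 42150 in the FasL KO libraries, the deepest count of the set. On the TMM scale of library sizes, in counts per 1e6 counts (CPM), wt ranged from 4211 to 4684 and FasL KO from 6807 to 8653, so every FasL KO library was above every wt library. The mean went from 4473 ± 241 to 7747 ± 923 CPM (SD, n = 3), a log2 fold change of 0.79 ± 0.10 (SE) with an edgeR adjusted p = 2.97e-05.

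H2-D1 encodes the classical class I heavy chain of the D locus (ENSMUSG00000073411, chromosome 17, 35262730 to 35267499, plus strand). It gave 178, 240 and 262 counts in the wt libraries and 694, 712 and 1233 in the FasL KO libraries. The wt libraries were close together, at 75.9 to 83.6 CPM, and the FasL KO libraries were all higher, at 173, 188 and 253 CPM. The mean rose from 80.0 ± 3.91 to 205 ± 42.6 CPM (SD, n = 3), a log2 fold change of 1.36 ± 0.18 (SE, edgeR adjusted p = 5.73e-05). H2-K1, the other classical heavy chain gene of this strain (chromosome 17, 33996017 to 34000347, minus strand), was listed at 0 in all 6 libraries. GENCODE release M21 gives it 16 transcripts, and 0% of its last 300 exonic bases lie in 1 transcript alone, against 100% for H2-D1 and for B2m. H2-Q4 and H2-Q7 also stood at 0% and H2-DMb1 at 43%, yet they had 514, 314 and 606 counts. These are the 3 tested genes with a shared end. Over all protein-coding genes, 6061 of 10585 with a shared end and 4256 of 11207 with a single-transcript end were listed at 0, while among the protein-coding genes of the set it was 15 of 27 and 10 of 17. Whether H2-K1 was expressed was not determined from these counts.

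Heavy chain genes of the Q region, which encode non-classical class I molecules, showed the largest folds. H2-Q4 (chromosome 17, 35379617 to 35385290) gave 9, 26 and 19 counts in the wt libraries and 141, 123 and 196 in the FasL KO libraries, a mean of 6.09 ± 2.01 and of 35.9 ± 3.96 CPM (SD, n = 3). The change on the log2 scale was 2.53 ± 0.38 (SE; edgeR adjusted p = 0.000236), and the lowest FasL KO library, at 32.4 CPM, was well above the highest wt library, at 8.22 CPM. H2-Q6 and H2-Q7 (chromosome 17, 35424850 to 35430055 and 35439155 to 35443773) encode Qa-2 antigens, which can be tethered to the membrane by a lipid anchor. H2-Q6 gave 1, 8 and 9 counts in the wt libraries and 48, 53 and 91 in the FasL KO libraries, a log2 fold change of 2.87 ± 0.67 (SE, edgeR adjusted p = 0.00701). H2-Q7 gave 12, 24 and 7 counts in the wt libraries and 58, 68 and 145 in the FasL KO libraries, and rose by 2.02 ± 0.55 (SE, edgeR adjusted p = 0.0183). Neither gene's groups overlapped. The H2-Q7 call was lost without wt 3 (adjusted p = 0.0682), without FasL KO 3 (0.110) and with the replicate number as a block (0.0522).

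A further 2 Q genes had counts but too few to test. H2-Q5, annotated as a polymorphic pseudogene, gave 1, 1 and 0 counts in the wt libraries and 6, 29 and 38 in the FasL KO libraries, a pooled FasL KO to wt ratio of 24.6 (95% exact counting interval 6.58 to 207). H2-Q10, which encodes a secreted class I molecule of the liver, gave 0, 1 and 0 counts in the wt libraries and 3, 4 and 3 in the FasL KO libraries, a pooled ratio of 6.75 (0.960 to 293). The interval of H2-Q10 includes 1, and intervals cover counting error only. Q genes are related in sequence. Of the 226 windows of 75 bases, the length of a read, in the last 300 bases of the principal transcript, 58 of H2-Q5 also occur exactly in H2-Q7. H2-Q4, with 46, and H2-Q6, with 47, share windows with transcripts of genes outside the H2 family. None of the windows in the ends of H2-Q7, H2-D1, H2-M3 or B2m was found in another gene. How the authors' counting treated reads that match several genes is not stated in any source at hand. The counts of H2-Q4, H2-Q5, H2-Q6, H2-Q7 and H2-Q10, and sums that include them, are uncertain to that extent. H2-Q7 is included because the windows of H2-Q5 occur in its transcripts, outside the end that was searched. H2-Q10 is included because windows of the pseudogene H2-T-ps occur in its transcripts.

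Summed over H2-Q4, H2-Q5, H2-Q6, H2-Q7 and H2-Q10, the level was 13.5 ± 4.73 CPM in wt and 78.0 ± 17.2 CPM in FasL KO (SD, n = 3). The single libraries read 10.8, 19.0 and 10.7 CPM for wt, then 63.9, 73.0 and 97.1 CPM for FasL KO, without overlap. Counts of the 15 class I heavy chain genes, grouped after their counts were seen, were 222, 355 and 341 in wt and 1053, 1081 and 1842 in FasL KO, or 107 ± 4.46 and 309 ± 61.2 CPM. Of these, Q genes took 10.4% (95% exact binomial interval 6.68 to 15.1), 16.9% (13.2 to 21.2) and 10.3% (7.25 to 14.0) in the wt libraries. In the FasL KO libraries they took 24.3%, 25.6% and 25.7%, with intervals that together span 21.7 to 28.3. H2-D1 took 74.9% ± 6.51 in wt and 66.2% ± 0.61 in FasL KO (SD, n = 3), with the lowest wt library, at 67.6%, near the highest FasL KO library, at 66.9%. For each heavy chain count there were 41.8 ± 2.68 counts of B2m in wt and 25.4 ± 2.26 in FasL KO (SD, n = 3), and these groups did not overlap either. For all 5 of these quantities the exact two-sided permutation test over libraries gave p = 0.1, the smallest that 3 against 3 allows. These p-values were not adjusted over the 5 quantities, which share counts and are not independent. The sums were formed after the counts were seen and hold H2-Q6 and H2-Q7. The p-values thus only restate that the groups do not overlap, and are no test of the set. These shares leave out H2-K1, and they compare counts and not molecules of different genes.

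**Figure D2:**
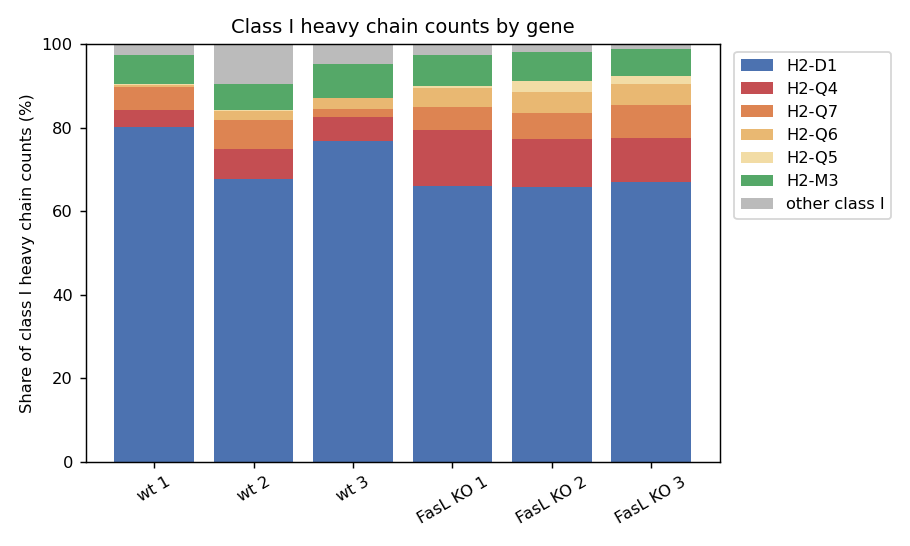
Share of class I heavy chain counts (vertical axis, percent, from 0 to 100) taken by each gene in each of the 6 libraries (bars). H2-D1 is the largest part in every library, and the Q genes together take 10.3% to 16.9% in wt and 24.3% to 25.7% in FasL KO.

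H2-M3 encodes a class I molecule that presents N-formylated peptides such as those of bacteria and mitochondria (chromosome 17, 37270220 to 37274484, plus strand). It gave 15, 22 and 28 counts in the wt libraries and 77, 75 and 115 in the FasL KO libraries. The wt range was 6.96 to 8.60 CPM and the FasL KO range 19.2 to 23.6 CPM, without overlap. The log2 fold change was 1.46 ± 0.42 (SE, edgeR adjusted p = 0.0248), and the call was lost without the filter on low counts (adjusted p = 0.0609) and without any 1 of the 6 libraries (0.0513 to 0.0822). Of the other M region genes, H2-M5 had 17 counts, all in FasL KO 2, and 12 of the 14 M region genes were listed at 0, 10 of them with a single-transcript end.

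Genes of the T region had few counts, and none could be tested. H2-T23 encodes Qa-1, the ligand of the CD94 and NKG2A receptor of natural killer cells, and gave 0, 0 and 4 counts in the wt libraries and 16, 0 and 1 in the FasL KO libraries. H2-T22, a ligand of γδ T cell receptors, gave 0, 11 and 0 counts in the wt libraries and 8, 0 and 3 in the FasL KO libraries. H2-T24 gave 6, 8 and 0 counts in the wt libraries and 1, 0 and 6 in the FasL KO libraries. The pooled FasL KO to wt ratio was 2.87 (95% exact counting interval 0.935 to 11.7) for H2-T23, 0.675 (0.265 to 1.72) for H2-T22 and 0.337 (0.115 to 0.893) for H2-T24. The interval of H2-T24 lies below 1, but each of the 3 genes had libraries at 0 beside libraries with counts in both genotypes, a spread that these intervals do not cover. The pseudogene H2-T-ps gave 0, 13 and 9 counts in the wt libraries and 0, 0 and 6 in the FasL KO libraries. Its pooled ratio was 0.184 (0.0610 to 0.468), below 1, with 1 wt library also at 0. H2-T10 had 5 counts, all in FasL KO 3, and H2-Bl gave 0, 1 and 3 counts in the wt libraries and 1, 0 and 0 in the FasL KO libraries. In H2-T10 and H2-T22, 58 of 226 windows occur in the other gene. In H2-T-ps, 79 windows occur in other genes, H2-Q1, H2-Q10 and H2-Bl among them. In H2-T23, 65 windows occur in transcripts of genes outside the H2 family. The counts of these T region genes are uncertain to the same extent as those of the Q genes.

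Among the genes of the set that make and load class I peptides, apart from the MHC chains themselves, Erap1 was the 1 with enough counts to test. Erap1 encodes an aminopeptidase of the endoplasmic reticulum that trims peptides to the length class I molecules bind (ENSMUSG00000021583, chromosome 13, 74639568 to 74693201, plus strand). It gave 37, 70 and 75 counts in the wt libraries and 145, 192 and 337 in the FasL KO libraries, or 20.8 ± 3.03 and 52.0 ± 16.5 CPM (SD, n = 3). The lowest FasL KO library, at 36.2 CPM, was above every wt library, and the log2 fold change was 1.31 ± 0.30 (SE, edgeR adjusted p = 0.00649). Without FasL KO 3 it was 1.03, with an adjusted p = 0.0507.

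The transporter and the immunoproteasome were hardly counted. Tap1, 1 chain of the peptide transporter, had 2, 17 and 0 counts in wt and none in FasL KO, and Tap2, its partner, had 1 count, in FasL KO 2. The pooled ratio of Tap1 had a 95% exact counting interval from 0 to 0.145, below 1, but 17 of its 19 counts came from wt 2 alone. Psmb9 gave 0, 5 and 0 counts in the wt libraries and 0, 2 and 0 in the FasL KO libraries, and Psmb10 gave 1, 0 and 0 counts in the wt libraries and 7, 2 and 0 in the FasL KO libraries. Both encode catalytic subunits of the immunoproteasome, and Psmb8, the third of these subunits, was listed at 0, as was Tapbp, which encodes tapasin. Nlrc5 had 1 count, in wt 3. Shares of the last 300 bases in 1 transcript ran from 0% to 14.3% for these 7 genes, which have 5 to 9 annotated transcripts each.

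**Figure D3:**
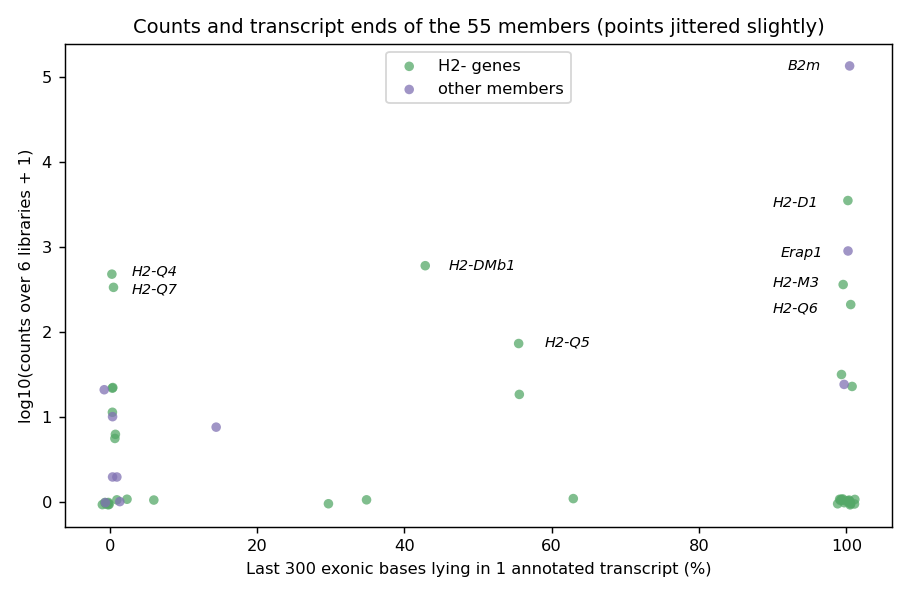
For each of the 55 genes, the share of the last 300 exonic bases of its principal transcript that lies in 1 annotated transcript (horizontal axis, percent) against log10 of its counts over the 6 libraries plus 1 (vertical axis). B2m, H2-D1, Erap1, H2-M3 and H2-Q6 are at 100%, and 15 of the 30 genes with a shared end and 17 of the 25 with a single-transcript end lie at 0 counts.

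Class II genes were almost without counts. Of 12 class II genes, 11 were listed at 0, among them H2-Aa, H2-Ab1 and H2-Eb1, which encode the chains of the classical molecules, and H2-Ea-ps, a pseudogene. Of these 11, 5 have a single-transcript end, namely H2-Eb1, H2-Eb2 and the pseudogenes H2-Ea-ps, H2-Pa and H2-Pb. For counting error only, the upper limit at 0 counts is 0.351 CPM across wt and 0.237 CPM across FasL KO. This limit does not cover reads that the counting may have dropped. H2-DMb1, which encodes a chain of the peptide editor of class II molecules, was the exception. It gave 21, 62 and 76 counts in the wt libraries and 72, 119 and 256 in the FasL KO libraries, or 17.6 ± 6.95 and 34.0 ± 17.4 CPM (SD, n = 3), and its log2 fold change of 0.93 ± 0.43 (SE) had an edgeR adjusted p = 0.171. Ciita, the class II transactivator, gave 0, 0 and 2 counts in the wt libraries and 9, 0 and 12 in the FasL KO libraries, a pooled ratio of 7.08 (95% exact counting interval 1.73 to 62.3), with 1 FasL KO library at 0. H2-Ke6, also listed at 0, encodes a steroid dehydrogenase and no MHC molecule.

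**Figure D4:**
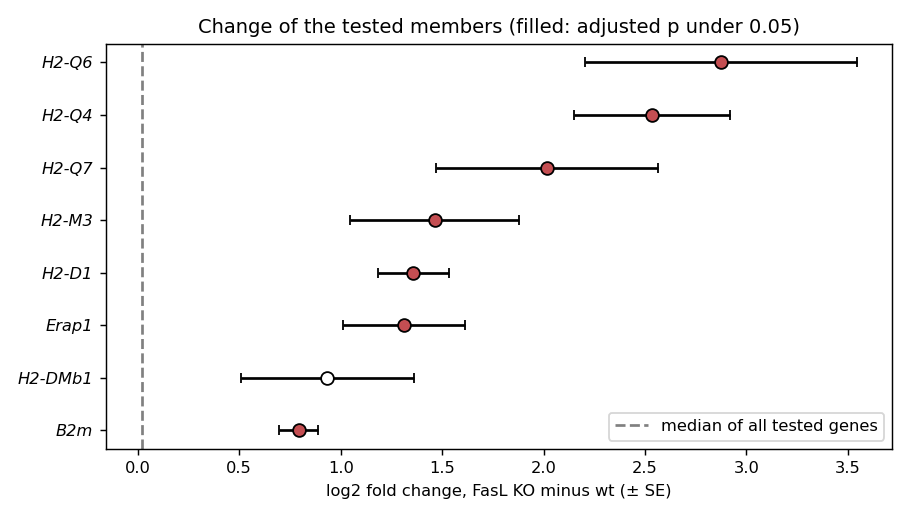
Log2 fold change, FasL KO minus wt, with its SE (horizontal axis) for the 8 tested genes; filled points passed an adjusted p of 0.05, and the dashed line is the median of all 8692 tested genes, 0.02. H2-Q6, H2-Q4 and H2-Q7 lie above 2, H2-M3, H2-D1 and Erap1 between 1.31 and 1.46, and H2-DMb1 did not pass.

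Partners of the set in the class I route showed a mixed picture. Of 9 peptide loading chaperones and translocon genes, 7 were tested, 2 rose and 5 did not pass, with a median log2 fold change of 0.86. Calr, which encodes calreticulin, a chaperone of class I heavy chains and of many glycoproteins, rose from 870.3 ± 29.2 to 1903 ± 25.6 CPM (SD, n = 3), by 1.13 ± 0.09 on the log2 scale (SE, edgeR adjusted p = 7.47e-07). Pdia3, its disulphide isomerase partner, rose by 0.69 ± 0.18 (SE, edgeR adjusted p = 0.0152). None of 4 tested proteasome genes of 9 and none of 6 tested cytosolic peptidase genes of 9 passed. Pomp, the proteasome maturation factor, stood at a log2 fold change of −0.31 (edgeR adjusted p = 0.0997), and Psme4, which encodes a proteasome activator, at −0.19 (adjusted p = 0.62). Lap3 and Blmh, which encode cytosolic peptidases, were at 0.01 and 0.64 (adjusted p = 0.98 and 0.0621). Psme1 and Psme2, the interferon-inducible activator subunits, were listed at 0 and have shared ends.

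In the class II route, 3 of 10 genes were tested and 2 rose. Ifi30 encodes a lysosomal thiol reductase that unfolds antigens, and rose by 1.35 ± 0.24 on the log2 scale, from 81, 157 and 193 counts in wt to 475, 362 and 787 in FasL KO (SE, edgeR adjusted p = 0.000855). Ctsb, which encodes the lysosomal protease cathepsin B, rose by 0.52 ± 0.14 (adjusted p = 0.0172). Cd74, the invariant chain, and Ctss were listed at 0, both with shared ends. Among class I-like genes outside the H2 complex, 3 of 12 were tested and none passed. Mr1, which presents vitamin metabolites, gave 43, 30 and 50 counts in the wt libraries and 37, 47 and 48 in the FasL KO libraries, and Fcgrt, the neonatal Fc receptor, stood at a log2 fold change of 0.55 (edgeR adjusted p = 0.573). Mill2, a relative of class I, gave 11, 7 and 21 counts in the wt libraries and 38, 47 and 94 in the FasL KO libraries (log2 fold change 1.57, edgeR adjusted p = 0.0925).

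Ligands that help or restrain T and natural killer cells went both ways. Of 6 tested of 15, 1 rose and 2 fell. Nectin2, a ligand of the receptors TIGIT and DNAM-1, fell by 1.71 ± 0.17 on the log2 scale (SE, edgeR adjusted p = 4.64e-06). Pvr, a ligand of the same receptors, fell by 2.16 ± 0.27 (SE, edgeR adjusted p = 4.17e-05). Icam1, the adhesion partner of LFA-1, had 1 count in wt and 50, 81 and 67 in FasL KO, a pooled ratio of 134 (95% exact counting interval 23.7 to 5302, edgeR adjusted p = 0.000187). Cd274, the checkpoint ligand PD-L1, gave 25, 85 and 14 counts in the wt libraries and 19, 62 and 29 in the FasL KO libraries and did not pass.

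Regulators of MHC genes were mostly without a call. Of 14 MHC transcription factor genes, 7 were tested and 1 rose. That gene was Irf8, a factor of myeloid and B cells, which had no count in wt and 33, 18 and 82 in FasL KO, at least 29.9-fold higher against a floor of 3 counts over the wt group (edgeR adjusted p = 0.00171). Rela and Creb1 were at log2 fold changes of −0.12 and 0.10 (adjusted p = 0.672 and 0.831). Of 14 interferon receptor and signalling genes, 5 were tested, none rose and 2 fell. Stat2 fell by 1.09 ± 0.23 and Socs3 by 0.58 ± 0.12 on the log2 scale (SE, edgeR adjusted p = 0.0033 and 0.00251), and Jak1 did not pass (0.23, adjusted p = 0.194). Irf1, Ifngr1 and Jak2 were listed at 0, all with shared ends, and Ifng and Ifnb1 were also listed at 0.

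Among interferon-stimulated genes outside the MHC, more fell than rose. Of 26, 18 were tested, 1 rose, 5 fell and 12 did not pass, with a median log2 fold change of −0.65. Usp18, an inhibitor of interferon receptor signalling, fell by 1.46 ± 0.22, Ifi44 by 1.26 ± 0.21 and Oas1a, a sensor of double-stranded RNA, by 1.13 ± 0.25 (SE, largest edgeR adjusted p = 0.00561). Cxcl9, a T cell chemokine induced by interferon gamma, rose, from 0, 6 and 8 counts in wt to 56, 63 and 179 in FasL KO (log2 fold change 3.82 ± 0.73, edgeR adjusted p = 0.0017). The summed level of the 26 genes was 1727 to 2728 CPM in wt and 946 to 1669 CPM in FasL KO. It was lower in each FasL KO library than in any wt library, opposite to B2m and H2-D1 in the same libraries.

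Macrophage markers were also higher in FasL KO libraries. Of 20, 10 were tested, 9 rose and 1, Cd14, fell, and their CPM added up to 281, 441 and 255 for the wt libraries but 2364, 3777 and 6565 for those of FasL KO. Lyz2, the lysozyme of myeloid cells, gave 7, 378 and 60 counts in the wt libraries and 7143, 11154 and 24281 in the FasL KO libraries. Lyz2 made up most of the FasL KO sums, at 1782, 2941 and 4984 CPM, so their order rests largely on this gene. Cd14 made up most of the wt sums, at 278, 308 and 237 CPM, and was at 70.6, 69.1 and 138 CPM in FasL KO. C1qb, C1qc and C1qa, which encode the chains of complement C1q, and Marco, a scavenger receptor, were the called markers with the lowest adjusted p. C1qb gave 0, 2 and 0 counts in the wt libraries and 334, 442 and 1088 in the FasL KO libraries (edgeR adjusted p = 1.49e-07). Marco and C1qc had no count in wt and were at least 223-fold and 552-fold higher in FasL KO, against a floor of 3 counts over the wt group (adjusted p = 2.46e-07 and 6.28e-07). C1qa gave 0, 5 and 0 counts in the wt libraries and 345, 595 and 1441 in the FasL KO libraries (adjusted p = 6.59e-07). C1qa, C1qb, C1qc, Marco, Laptm5 and Mpeg1 were tested through their FasL KO counts. Fewer than 3 wt libraries reached 2.80 CPM for them, so the count of 9 that rose is a description and no test. The same limit holds for Irf8, Icam1 and Cxcl9 above and for Ighm below. FasL KO 3 had the highest marker sum and was the highest of the 6 libraries for each of the 7 genes of the set that rose. B2m, H2-D1, Erap1, H2-M3, H2-Q6 and H2-Q7 rose from FasL KO 1 to FasL KO 2 to FasL KO 3, as the marker sum did. H2-Q4 did not, being lower in FasL KO 2 than in FasL KO 1. Among the wt libraries, wt 2 had the highest sum. H2-D1, at 75.9 CPM, and H2-M3, at 6.96 CPM, were lowest there. H2-Q4, at 8.22 CPM, and H2-Q7, at 7.59 CPM, were highest there, and B2m, Erap1 and H2-Q6 lay between. Defining macrophage genes Adgre1, Csf1r, Tyrobp, Fcer1g, Aif1 and Cd163 were listed at 0 in all libraries, 5 of them with shared ends. The part of these markers in the MHC result was not tested.

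**Figure D5:**
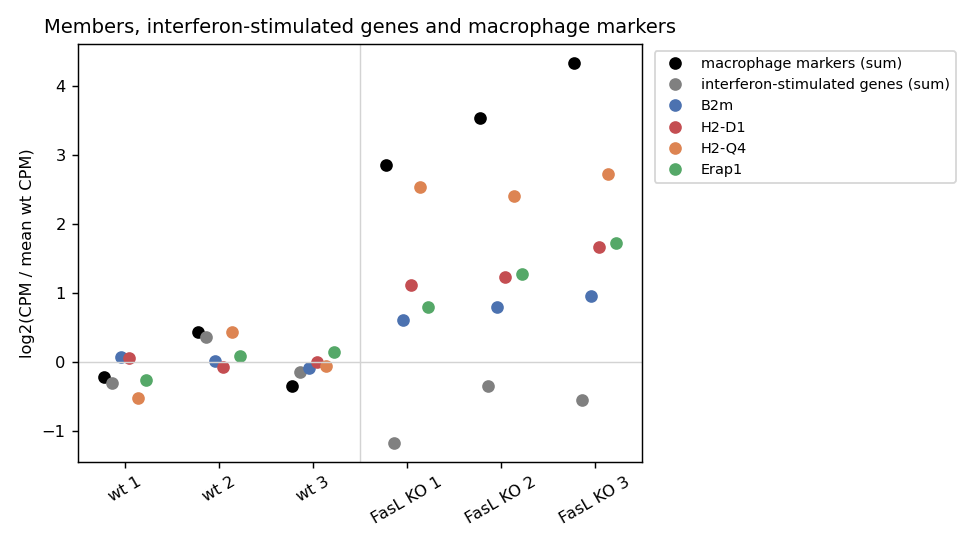
Level in each library relative to the mean of the wt libraries, as log2 of the CPM ratio (vertical axis), for B2m, H2-D1, H2-Q4 and Erap1 and for the summed CPM of 20 macrophage markers and 26 interferon-stimulated genes (colours; points of a library are spread sideways). In the FasL KO libraries the macrophage sum, mostly Lyz2, is 2364 to 6565 CPM and lies above the 4 genes. These lie above 0, and the interferon-stimulated sum lies below 0.

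Markers of other cells that present antigen were sparse. Of 9 dendritic cell markers, 1 was tested and did not pass, Zbtb46, and their summed CPM overlapped between the groups, reaching 16.6 in FasL KO 2. Of 8 B cell markers, 6 were listed at 0, Cd79a and Ms4a1 among them, and Ighm had 1 count in wt and 13, 21 and 31 in FasL KO (pooled ratio 43.8, 95% exact counting interval 7.60 to 1758, edgeR adjusted p = 0.022). Of 11 T and natural killer cell markers, 9 were listed at 0, and Thy1, which fibroblasts also carry, fell by 1.46 on the log2 scale (adjusted p = 0.00628). Neither of 2 tested endothelial markers of 9 passed, with Plvap at 2.43 and Kdr at 1.51 (adjusted p = 0.232 and 0.469). Of 14 osteoblast and fibroblast markers, 10 were tested, 6 rose and 1 fell. On the log2 scale Lum, Col1a1 and Col1a2 rose by 2.01, 1.83 and 1.68, and Alpl fell by 2.20 (edgeR adjusted p at most 7.97e-07). The osteoblast marker Bglap had 1 count in all.

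Neighbouring genes gave a comparison for the chromosomal region. Between the first and the last H2 gene (chromosome 17, 33974659 to 37483552), 29 genes outside the set were tested, 3 rose and 4 fell, or 24.1%, with a median log2 fold change of −0.02. On the whole of chromosome 17, 25 of 358 other genes rose and 29 fell, or 15.1%. Genes beside the H2 genes that rose thus included calls in both directions.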

How the data were processed

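RNA of 6 libraries was measured by QuantSeq 3′ mRNA-Seq FWD with single 75-base reads, which sample a transcript near its 3′ end, per the labels' protocols. Reads were trimmed with Cutadapt and mapped with STAR by the sequencing company, per the series' design text, and mm10, FastQC, Trim Galore and DESeq2 appear in the submitters' processing notes. No source used here names the counter, its strand setting or its annotation, so reads of overlapping, antisense and near-identical genes are uncertain. The authors deposited raw counts, 1 row per Ensembl gene. Totals were 2011173 to 3105322 in wt and 4048258 to 5245546 in FasL KO libraries, and the 20 most abundant genes took 17.6% to 19.5% and 27.1% to 28.3% of them. 1 row without identifier was left out.

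Symbols (51883 identifiers) and GRCm38 positions (51932) came from a table of gene names and GENCODE M21. Genes were kept by edgeR's filterByExpr (about 10 counts in 3 libraries and 15 in total), scaled by TMM and tested with edgeR 4.0.16 (R 4.3.3) by the quasi-likelihood test of FasL KO against wt with no covariate, Benjamini-Hochberg adjusted over all 8692 genes and called at 0.05. Each SE was derived as the size of the log2 change over the root of the F statistic. Pooled ratios and shares carry 95% exact (Clopper-Pearson) intervals, and a gene at 0 has a floor of 3 counts over the group. Both cover counting error only. An end was called single-transcript when 99% or more of its last 300 exonic bases belong to 1 transcript. The fits were tested on simulated data with planted changes. DESeq2 1.42.0, other scalings, no filter, the replicate block and leaving out each library were alternatives. Every gene of the set with a count is named, and from each other list up to 4 called genes by adjusted p or up to 2 by mean count. Further names were chosen after their values were seen. The genes and lists were chosen with earlier results of these data known.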

Additional observations from a re-analysis of the deposited data

How the results depend on the processing

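The number of called genes of the set was 7 with size factors in place of TMM, with library size alone and in DESeq2, 6 without the low-count filter and with the replicate block, and 4 to 7 when 1 library was left out, with 4 without FasL KO replicate 3. Over all genes the count ran from 1224 to 1519 when edgeR was run without 1 library, with size factors or with the replicate block, and was 1695 with library size alone, 1688 in DESeq2 and 1676 without the filter. With library size alone the median change across tested genes was −0.14 on the log2 scale, against 0.02, and the test called 720 higher and 975 lower, against 847 and 668, while all 7 calls in the set were higher under each of these scalings. Of 88 values of single genes under 11 alternatives none changed direction, 77 kept their side of the threshold and 11 fell short, for H2-M3, H2-Q7 and Erap1, as given above. B2m ran from 0.64 to 0.86, H2-D1 from 1.15 to 1.44, H2-Q4 from 2.35 to 2.81 and H2-Q6 from 2.48 to 3.19, with adjusted p up to 0.000383, 0.000694, 0.00208 and 0.044. Libraries with the same number did not deviate together (correlations −0.02, −0.01 and −0.02). With 3 libraries per genotype, this cannot tell whether the samples were handled in pairs. The replicate block called 1359 genes and 6 of the set. The cause of the lost calls was not tested. Of the set, 15 genes had counts but too few to test, and another 32 were listed at 0. How far depth or the counting of reads set these numbers was not tested.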
